A study of Mus musculus with 9 samples.

Results

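The data described here are the control arm of a capture experiment: the genomic regions that LacZ probes retrieved over input DNA in mouse male germ cells. The members are all peaks on chromosomes 1 to 19 in the deposited LacZ list, 9213 of the 46830 autosomal peaks in the lists of both probe sets. The other 37617 belong to probes against the long noncoding RNA Gm4665, which the study used to ask which regulatory regions that RNA contacts. All 9 samples were DNA of testicular germ cells from wild-type mice (ICR strain, postnatal day 35), in 3 groups of 3 replicates: LacZ probes, Gm4665 probes and input. No sample carried an engineered allele or a drug treatment in the labels, and sample titles call the Gm4665 captures LncRNA-20. The probe set of each sample is known from its title alone: the protocol text is the same for all 9 samples and names only Gm4665 probes, for the LacZ samples too. Whether each replicate was a different animal is not stated, and the replicate spread and p-values given here may be technical only. The germ cell label could not be checked against marker expression, since DNA and no RNA was measured.

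In this kind of capture, cells are cross-linked, chromatin is sheared, and biotinylated DNA probes complementary to an RNA pull that RNA out together with the chromatin attached to it. LacZ is a bacterial gene that mice lack, so a LacZ probe set has no intended target and its peaks measure what the beads and probes retrieve without one. Such retrieval can involve probes that pair directly with genomic DNA, open or easily sheared chromatin, and repeated sequences whose copies a reference genome collapses. The files used here do not hold the LacZ probe sequences, so pairing between probes and peaks was not analysed here.

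Regions at the major urinary protein (Mup) genes were among the clearest features of the LacZ list. These genes encode small pheromone-binding proteins made mainly by the liver, and they lie in a tandem array of near-identical copies on chromosome 4. Promoters of 6 genes that lay whole within a strong LacZ peak are printed here from RefSeq (GRCm38.p6), 250 bases before and 50 after the annotated start, 5′ to 3′ on the strand of the gene. Among reference promoters, which do not cover every autosome, Prss33, Il1f9, Mup-ps16 and Mup7 had the strongest peaks covering the whole promoter of a protein-coding gene. Promoters outside that reference were not ranked. Mup17 and Mup18 were added after their values were seen to show how alike the Mup copies are. Capitals mark the motifs searched on either strand: the GC box (GGGCGG), the CCAAT box (CCAAT), the TATA box (TATAAA), and repeats of CA (written CACACACA), of GA (written GAGAGAGA), of T (written TTTTTTTT) and of purines (written GGAAGGAA).
Prss33 (chr17:23835718-23836017, minus strand): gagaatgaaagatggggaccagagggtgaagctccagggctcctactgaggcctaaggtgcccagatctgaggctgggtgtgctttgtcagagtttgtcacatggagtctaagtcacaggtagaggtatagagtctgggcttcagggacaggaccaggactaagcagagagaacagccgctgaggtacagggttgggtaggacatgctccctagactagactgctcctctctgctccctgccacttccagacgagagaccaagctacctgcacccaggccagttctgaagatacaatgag
Il1f9 (chr2:24186226-24186525, plus strand): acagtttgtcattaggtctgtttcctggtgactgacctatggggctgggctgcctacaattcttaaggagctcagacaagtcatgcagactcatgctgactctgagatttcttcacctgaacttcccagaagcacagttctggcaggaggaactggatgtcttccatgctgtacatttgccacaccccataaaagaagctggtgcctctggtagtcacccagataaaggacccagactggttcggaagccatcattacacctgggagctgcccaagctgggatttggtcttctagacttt
Mup-ps16 (chr4:61796164-61796463, plus strand): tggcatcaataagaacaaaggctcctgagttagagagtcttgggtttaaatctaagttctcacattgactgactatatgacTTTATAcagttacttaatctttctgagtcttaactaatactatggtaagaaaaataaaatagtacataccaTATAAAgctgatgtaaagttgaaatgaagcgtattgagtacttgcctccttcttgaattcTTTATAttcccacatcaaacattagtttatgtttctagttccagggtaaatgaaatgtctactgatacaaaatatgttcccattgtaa
Mup7 (chr4:60070426-60070725, minus strand): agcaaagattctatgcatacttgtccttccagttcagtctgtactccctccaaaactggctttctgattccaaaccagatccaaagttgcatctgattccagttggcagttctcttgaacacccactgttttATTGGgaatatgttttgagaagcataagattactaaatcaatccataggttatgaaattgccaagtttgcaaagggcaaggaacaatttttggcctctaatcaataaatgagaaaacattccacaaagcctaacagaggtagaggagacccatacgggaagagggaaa
Mup17 (chr4:61595783-61596082, minus strand): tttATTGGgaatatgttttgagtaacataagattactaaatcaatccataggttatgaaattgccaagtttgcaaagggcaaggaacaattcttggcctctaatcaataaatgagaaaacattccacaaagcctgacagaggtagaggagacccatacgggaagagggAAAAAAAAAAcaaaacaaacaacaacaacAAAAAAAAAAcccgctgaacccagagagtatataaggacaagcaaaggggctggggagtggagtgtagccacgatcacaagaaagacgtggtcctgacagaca
Mup18 (chr4:61674045-61674344, minus strand): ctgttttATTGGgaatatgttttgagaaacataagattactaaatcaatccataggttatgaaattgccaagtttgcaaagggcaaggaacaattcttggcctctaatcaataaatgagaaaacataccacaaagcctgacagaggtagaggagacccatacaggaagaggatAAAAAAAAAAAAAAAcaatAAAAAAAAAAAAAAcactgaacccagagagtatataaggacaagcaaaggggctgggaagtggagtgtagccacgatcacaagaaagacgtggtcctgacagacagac
Prss33 encodes a serine protease and Il1f9 a cytokine of the interleukin-1 family, and neither promoter held any of the motifs. Mup17 and Mup18 were identical at 286 of 300 aligned positions (95.3%). The Mup7 window lay 129 bases off in register from that of Mup17 and matched it at 167 of the 171 positions they share (97.7%). Mup-ps16, annotated as protein-coding despite its symbol, matched Mup17 at 78 of 142 shared positions (54.9%). The lower-coordinate end of Mup-ps16 lay 1826.26 kb from the start of the first Mup gene. The midpoint of the peak over its printed window lay at 1839.83 kb. That window is therefore not at this end of the gene, and the 54.9% does not measure how alike the copies are. Reads from copies as alike as Mup7, Mup17 and Mup18 may not be told apart with certainty, so the position of a signal among Mup copies is uncertain. How many reads this concerns was not tested.

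Between the replicates, the LacZ folds differed first of all in scale. A fold here is the linear enrichment over input that the authors deposited for each replicate of a peak. The median fold over the 9213 peaks was 23.0 in replicate 1, 8.18 in replicate 2 and 10.9 in replicate 3 (mean 14.0 ± 7.89, SD, n = 3). Replicate 1 stood apart: the lowest 5% of its folds ended at 9.60, above the median of replicate 2. The replicates ranked 1, 3, 2 from high to low in 73.8% of peaks (6797) and 1, 2, 3 in another 22.3% (2050). For the Gm4665 probes the medians were 11.4, 8.50 and 10.3 in replicates 1, 2 and 3. Each list was scaled on its own, and these levels are therefore set side by side only.

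**Figure D1:**
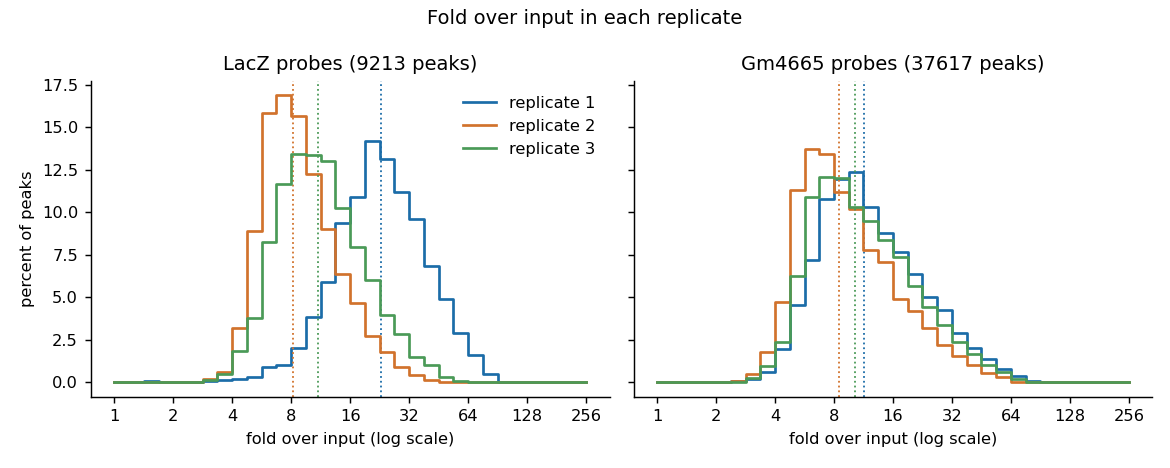
Percent of peaks (vertical axis) by fold over input (horizontal axis, log scale) in each replicate, for the LacZ list on the left and the Gm4665 list on the right, with dotted lines at the medians. LacZ replicate 1 centres on 23.0, to the right of replicates 2 and 3 at 8.18 and 10.9, while the 3 Gm4665 medians lie between 8.50 and 11.4.

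Most of that spread was a common factor. The coefficient of variation over the 3 replicates had a median of 54.1% over LacZ peaks with folds as deposited. After each fold was divided by the median fold of its replicate, which gives the relative fold used from here on, it fell to 20.5%, beside 18.04% in the Gm4665 list. Relative spread was 23.8% in the weakest 25% of LacZ peaks and 17.6% in the strongest 25%. Across peaks, which are not independent replicates and share position and input, Spearman's rho between LacZ replicates was 0.66, 0.74 and 0.70 for replicates 1 and 2, 1 and 3, and 3 and 2. The leading peaks were shared in part: 4 peaks were among the top 10 of every replicate, 31 among the top 100, and 533 among the top 1000.

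The folds of each replicate fell on a grid of its own. The sequencing depth of the samples was not analysed here. Within 0.02 of a step, 54.3%, 50.1% and 52.0% of folds were whole multiples of 0.390, 0.455 and 0.577 in replicates 1, 2 and 3. The median peak corresponded to 59.0, 18 and 18.95 steps. Were a step worth 1 read at fixed background, a median peak would rest on about that many reads.

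LacZ peaks were wider than Gm4665 peaks. Their median width was 846 bp (from 238 to 5552 bp, quartiles 685 and 1052 bp), against 585 bp in the Gm4665 list. The lists also differed in the deposited coverage at the summit, with medians of 66 (LacZ) and 37 (Gm4665). Whether the widths differ apart from coverage was not tested. Peaks under 500 bp made up 9.31% of the LacZ list (858 peaks) and 38.8% of the Gm4665 list, and 129 LacZ peaks (1.40%) were over 2 kb. The LacZ list covered 8.28 Mb in all. Summits were central: 96.9% lay between 25% and 75% of the way along the peak. The list gives 1 set of intervals for the 3 replicates, so no replicate error of a width can be given. How the intervals were set is not stated. In the 120 intervals that the list repeats, the fold of replicate 1 never varied, while replicate 2 varied in 49 and replicate 3 in 89. Whether the intervals follow replicate 1 was not tested, a limit on the widths and on the high folds of that replicate.

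Width and fold rose together in each replicate. In replicate 1, the median fold was 14.5 in the narrowest 25% of LacZ peaks (238 to 685 bp) and 40.0 in the widest 25% (1052 to 5552 bp). In replicate 2 the corresponding folds were 6.44 and 13.6, and in replicate 3 they were 7.50 and 19.03. Across peaks, Spearman's rho of width with fold was 0.75, 0.61 and 0.67 in replicates 1, 2 and 3. The widest peaks therefore exceeded the narrowest by 1.47, 1.08 and 1.34 on the log2 scale. In the Gm4665 list the same log2 ratio was 1.81, 1.62 and 1.69, and the values of the probe sets did not overlap. The mean difference of -0.41 (LacZ minus Gm4665) had an exact permutation p of 0.1 (two-sided, n = 3 and 3), the smallest this design allows, and 0.4 after adjustment over 4 such comparisons. The difference is not past the 0.05 threshold, and the sets compared cover different widths, with medians of 535 and 1273 bp in the LacZ list and 314 and 1034 bp in the Gm4665 list.

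**Figure D2:**
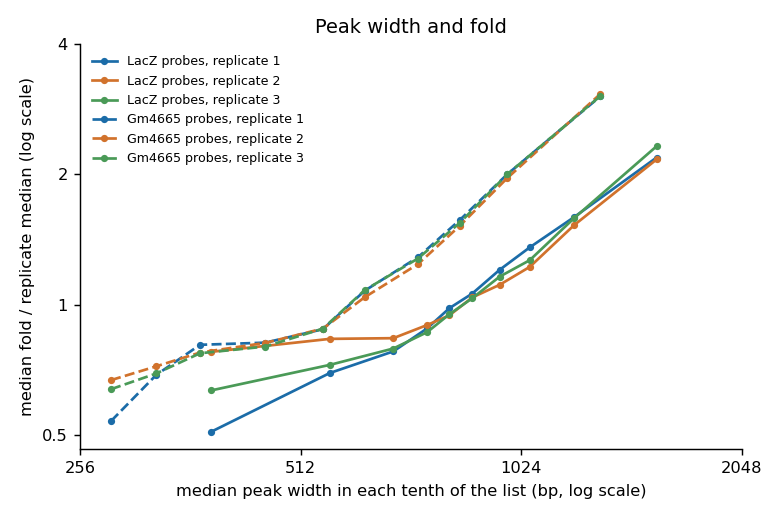
Median relative fold (vertical axis, log scale) against median peak width (horizontal axis, bp, log scale) in each of 10 equal groups of a list ordered by width, for the LacZ replicates (solid) and Gm4665 replicates (dashed). All 6 lines rise with width, and the LacZ lines lie to the right, at wider peaks, since the list has a median width of 846 bp against 585 bp.

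By position, LacZ peaks were denser in and near genes than between them. A gene end is the 2 kb either side of an annotated start or end, which holds promoters and 3′ ends alike. Of the LacZ peaks, 1464 (15.9%, 95% Wilson interval 15.2% to 16.7%) had their midpoint at a gene end, where 11.6% of the autosomal sequence lies. Another 4389 (47.6%, 46.6% to 48.7%) lay inside genes away from the ends, which hold 42.5% of the sequence. The remaining 3360 (36.5%, 35.5% to 37.5%) were intergenic, in 46.0% of the sequence. Intervals cover counting error only. The corresponding shares in the Gm4665 list were 13.1%, 44.5% and 42.4%. Position did not go with strength: median relative folds were 1.00, 1.00 and 1.00 in the 3 classes. Gene ends over all other positions gave a log2 ratio of median folds of -0.05, 0.06 and -0.02 in LacZ replicates 1, 2 and 3. The difference from the Gm4665 probes was -0.0017 (exact permutation p = 1, two-sided, n = 3 and 3).

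Around annotated gene starts, LacZ peak density was highest in the first 1 kb downstream. It reached 6.40 peaks per Mb there, from 176 peaks, 1.66 times the mean of the list. In the 1 kb upstream it was 5.19 per Mb, 1.35 times the mean, and between 1 and 2 kb upstream it was 3.62, 0.941 times the mean. The Gm4665 list stood at 1.17 and 1.16 times its own mean in the 1 kb after and before the start. The LacZ profile was uneven in both directions, with 1.48 times the mean between 6 and 7 kb upstream. Start sites came from the promoter table, which covers 18 of the 19 autosomes.

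**Figure D3:**
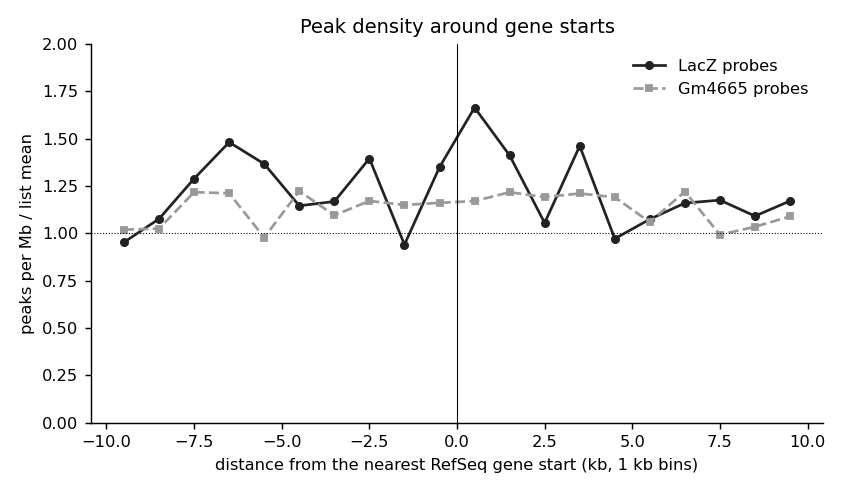
Peaks per Mb divided by the mean of the list (vertical axis) by distance from the nearest RefSeq gene start in 1 kb bins (horizontal axis, kb, positive downstream) for LacZ (black) and Gm4665 probes (grey). The LacZ line peaks at 1.66 just after the start, where the Gm4665 line is at 1.17.

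A LacZ peak touched a gene end in 4.29% of the 46714 autosomal genes (2002), and in 4.96% of the 20560 protein-coding genes (1019). Among the classes of noncoding genes, 4.57% of lncRNA genes, 5.18% of tRNA genes, 2.82% of snoRNA genes, 2.11% of miRNA genes and 1.84% of snRNA genes had one. Ribosomal RNA genes differed, with 38 of 60 (63.3%), all 38 of them in 1 array of 48 such genes described below. The copies there lie closer together than the window at a gene end, so that 1 peak counts for several genes, and 22 peak midpoints lay at these ends. In the Gm4665 list 24 of the 60 had a peak (40%), beside 14.7% of protein-coding genes. Of the 31396 reference promoters, 237 (0.755%) were touched by a LacZ peak. Those promoters were close to the rest in composition: median GC content was 52.3% against 53% of all promoters. The CCAAT box was present in 44.7% against 37.3% of all, the GC box in 34.6% against 36.0%, and the TATA box in 9.28% against 13.6%. The repeats of CA, GA, T and purines were in 3.797%, 2.95%, 8.86% and 3.38%, beside 4.14%, 3.96%, 7.74% and 3.72% of all promoters. A longer repeat holds its motif at several overlapping places, and each promoter was counted once.

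The strongest LacZ peak on the autosomes was intergenic, at chr3:55005368-55008379. Its folds were 126, 60.1 and 108 in replicates 1, 2 and 3, and its mean relative fold of 7.58 was the highest of the list. The nearest gene, 38596 bp from its midpoint, was Ccna1, the cyclin A1 gene that male meiosis requires. The next intergenic peaks had mean relative folds of 6.74 (near Apbb1ip, which encodes a Rap1 effector of cell adhesion), 5.76 (near Rab22a, an endosomal GTPase), 4.45 (near the pseudogene Gm18674) and 4.28 (near the lncRNA gene Gm46779). Rab22a was the closest of these genes, 5481 bp from the midpoint of its peak.

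The widest LacZ peak lay in a gene for protein export. At chr5:30954510-30960061 it spanned 5552 bp of Preb, whose product starts the formation of transport vesicles at the endoplasmic reticulum. Its folds of 156, 49.9 and 80.9 gave the second highest mean relative fold, 6.76. Ift88, an intraflagellar transport gene that sperm tail formation needs, held a peak of 3035 bp with folds of 99.4, 53.3 and 74.4. Cacna1a, a neuronal calcium channel gene, and Grip1, a synaptic scaffold gene, held peaks with mean folds of 59.6 ± 11.01 and 61.0 ± 23.8 (SD, n = 3). The fifth was in the lncRNA gene Gm41147, with 59.3 ± 18.8. The other widest peaks lay in Kif26b (3379 bp), Arhgap23 (3253 bp) and the lncRNA gene 1700010I02Rik (3054 bp), with lower mean relative folds of 2.59, 2.60 and 1.77.

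At gene ends the leading peaks fell at genes of unrelated function. The strongest, 1474 bp from the pseudogene Gm13198, had folds of 119, 40.5 and 74.5. It was followed by the end of the lncRNA gene Gm40677 with 89.0, 39.1 and 72.3. Nrip1, a corepressor of nuclear receptors, had 106, 34.6 and 60.0 at chr16:76286635-76288252. Colq, which anchors acetylcholinesterase at the synapse, had 80.0, 43.6 and 58.1. Further down came Ppp2r2b, a regulatory subunit of protein phosphatase 2A (mean fold 53.3 ± 22.1, SD, n = 3), and Prss33 with its neighbour Prss41 (51.2 ± 19.9). Prdm12, a transcriptional regulator of pain-sensing neurons, had 49.8 ± 22.9. Polr1d, a subunit of RNA polymerases I and III, had 48.2 ± 19.7, and the lncRNA genes Gm51900 and Gm52150 closed the first 10. In each of these peaks apart from that at Gm51900, replicate 1 was highest and replicate 2 lowest. Gm51900 had nearly equal folds of 40.5, 40.7 and 44.6.

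Among the 500 strongest peaks, relative spread ran from 1.18% to 56.6%. The tightest 5 included peaks beyond the higher-coordinate end of Mup16 (65.9, 22.5 and 30.6, a relative spread of 2.07%) and in Dpp8, a dipeptidyl peptidase gene (69.8, 24.96 and 34.5, 2.11%). The widest spread was in Epb41l2, a membrane skeleton gene, whose folds of 32.5, 43.6 and 60.0 ranked the replicates 3, 2, 1. A peak at Fcgr3, an antibody receptor gene, also ranked replicate 3 first, with 37.1, 17.3 and 42.1. The same peak held tRNA genes, among them n-TEctc5 and n-TGtcc1, and the hairpin of Mir6546, 1 of 2 miRNA hairpins inside a LacZ peak out of 919 in the reference. The mature arms of Mir6546 are printed with their seeds in capitals, from RefSeq.
mmu-miR-6546-5p: aGGCGCCUcugagcuugugcuugu
mmu-miR-6546-3p: gAGCGAAGcccaagcgccaga
The other hairpin was Mir6417 on chromosome 5, in a peak with folds of 32.8, 8.52 and 19.001.

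The Mup array was singled out after its values were seen, as 2 of the 8 windows of 1 Mb with at least 13 LacZ peaks, where the median window held 3. Between 10 kb before the first and 10 kb after the last Mup gene (chr4:59946804-62160841) lay 28 LacZ peaks, 12.6 per Mb against 3.83 over the list. Folds there ran from 24.8 to 85.4 in replicate 1 (median 52.7), from 5.85 to 30.5 in replicate 2 (20.03) and from 11.1 to 45.0 in replicate 3 (30.6). The medians were 2.29, 2.45 and 2.80 times those of the peaks elsewhere (mean 2.51 ± 0.263, SD, n = 3), so the array was high in every replicate. Of the 28 peaks, 27 had a relative fold above 1, and their median width was 1350 bp. The Gm4665 list held 15 peaks in the array, 6.77 per Mb against 15.6 elsewhere in that list. Their median folds were 8.87, 8.09 and 9.05, or 0.778, 0.951 and 0.880 times those elsewhere in that list.

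The peaks kept a fixed place relative to the Mup genes. Of the 22 genes named Mup with a number, 15 had a LacZ peak at a gene end (68.2%, beside 4.96% of protein-coding genes). None had a Gm4665 peak there, where 14.7% of protein-coding genes had one. In all 15 the peak was at the end with the higher coordinate, and its midpoint lay outside the gene, between 456 and 894 bp away (median 645 bp). The reference gave a strand for 14 of the 22 genes. Among these, 9 had such a peak, all 9 are on the minus strand, and all 9 midpoints lay upstream of the start, by 456 to 764 bp. Mup12 had the strongest, with folds of 64.7, 29.5 and 41.5, and Mup22 and Mup7 had 54.9, 22.5 and 45.0, and 61.6, 23.4 and 37.5. The weakest of the 15 by mean was at Mup19, with 39.7, 8.64 and 17.5. Mup2, Mup3, Mup4, Mup5, Mup6, Mup20 and Mup21 had no LacZ peak at an end. Apart from Mup2, these lie toward the borders of the array, where Mup4 and Mup6 come first and Mup5, Mup20, Mup3 and Mup21 come last.

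A further 13 peaks of the array were away from those gene ends. Of these, 9 started 10.8 to 13.8 kb beyond the start of a gene-end peak (median 13.5 kb). In or within 2 kb of a Mup gene with a pseudogene symbol lay 10 of the 13. The gene-end peaks of Mup13, Mup15, Mup18 and Mup19 also lay within 2 kb of such a gene, so this is not particular to the 13. The 13 peaks had median folds of 60.3, 20.6 and 30.7, close to the 50.3, 18.6 and 30.6 of the peaks at gene ends. A further measure came from the deposited pileup, the coverage at the summit, which tracks replicate 1. The fold of replicate 1 divided by the pileup plus 1 reached a ceiling of 0.390 in 52.3% of peaks. The factor by which a peak fell below that ceiling is called its background level here, and its median was 1.03 at the Mup array and 1 elsewhere. The level is built from the fold of replicate 1 itself, so a high level means a low fold of that replicate for its pileup.

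**Figure D4:**
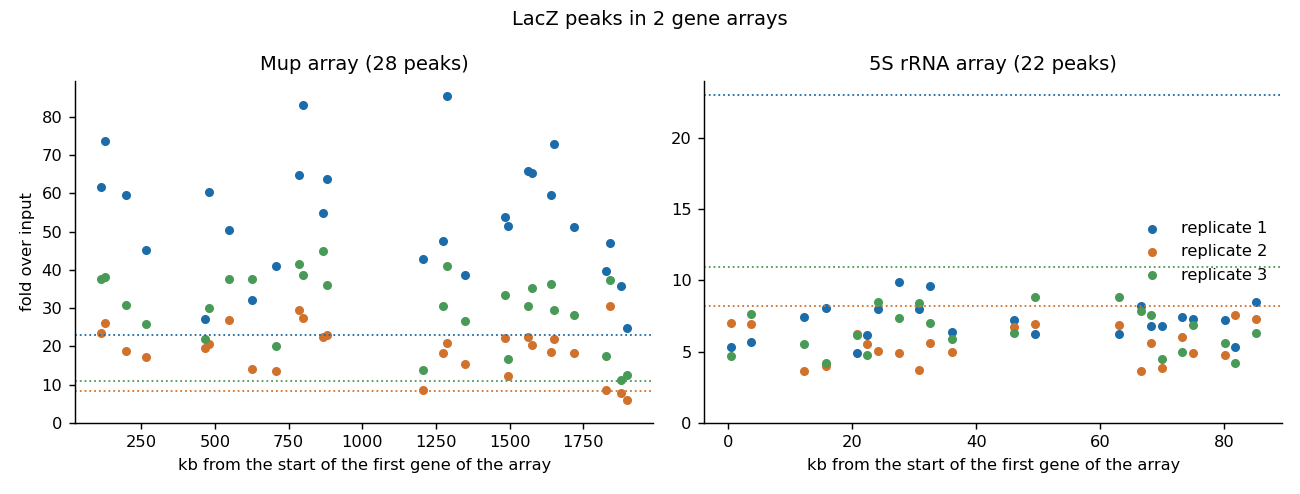
Fold over input (vertical axis) of each LacZ peak in replicates 1, 2 and 3 by distance in kb from the start of the first gene of the array, for the Mup array on the left and the 5S rRNA array on the right, with dotted lines at the median fold of each replicate over all peaks. The Mup peaks lie above the line of their replicate nearly throughout, and the 5S peaks lie below it.

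The 5S ribosomal RNA array lay in the window of 1 Mb with the most LacZ peaks (28), and its peaks were weak. The genes encode the small RNA of the large ribosomal subunit, and 50 annotated copies lie on chromosome 8 at a median spacing of 1698 bp. Between 10 kb before the first and 10 kb after the last copy (chr8:123528784-123632046) lay 22 LacZ peaks, a choice also made after the values were seen. Median folds were 7.22, 5.56 and 6.30 in replicates 1, 2 and 3, or 0.314, 0.680 and 0.576 times those elsewhere (mean 0.523 ± 0.189, SD, n = 3). No peak of the 22 reached a relative fold of 1. The median width was 337 bp and the median background level 1.75. Most of the peaks began close after a copy. The gap from the end of the copy to the start of the peak had a median of 49 bp, and ran from -40 to 1736 bp. In 20 of 22 the peak began after the end of a copy. Copies are short beside their spacing, so this count alone says little about placement. The Gm4665 list held 10 peaks there, with median folds of 4.46, 3.67 and 6.41, or 0.391, 0.432 and 0.623 times those elsewhere. Both lists were dense in the array, with 213 LacZ peaks per Mb against 3.81 elsewhere and 96.8 Gm4665 peaks per Mb against 15.6. Copies of 5S genes are near-identical, so which copy a read came from is uncertain.

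A small set of peaks had low folds of replicate 1 for their pileup. In 16 peaks the background level was over 20 (from 21.0 to 127), a limit set after the values were seen. Of these, 10 lay within 34.9 kb at the start of chromosome 9 (chr9:3000273-3035200). Their folds were 1.36 to 2.04 in replicate 1, 1.44 to 2.27 in replicate 2 and 2.03 to 3.32 in replicate 3. Another pair lay at chr2:98664974-98667280, and 1 peak at chr17:39846439-39846748 lay by Rn18s-rs5, a ribosomal RNA-related gene, with 1.43, 3.96 and 6.30. The order 3, 2, 1 held in 15 of the 16. Since the level is built from the fold of replicate 1, the low place of that replicate is part of how these peaks were chosen and is no finding. The 228 peaks with levels over 2 and up to 20 had median folds of 10.4, 7.38 and 10.9. These included the peaks at Epb41l2 and Gm51900 described above, so the low place of replicate 1 there carries the same limit.

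Between whole autosomes the density of LacZ peaks differed little, though it was uneven within them. Of 2413 windows of 1 Mb, 156 held no LacZ peak, and the median window held 3. Density was 3.83 per Mb over the list, from 3.34 on chromosome 12 to 4.40 on chromosome 11. Over the 19 chromosomes, Spearman's rho of density with gene density was 0.56, and long genes held the most peaks. Among protein-coding genes, 17.6% had a LacZ peak in the gene with 2 kb flanks, from 4.85% of those under 10 kb to 88.9% of those over 500 kb. Peaks at gene ends depended less on length, at 4.37% and 6.48% of the same groups. Macrod2, a mono-ADP-ribose hydrolase gene of 1998 kb, held 14 peaks. The immunoglobulin heavy chain locus Igh, the adhesion gene Ntm and the splicing regulator gene Rbfox1 held 10 each, and Camta1, a transcription activator gene, held 9. Per length these stood between 3.63 (Igh) and 11.2 (Camta1) peaks per Mb.

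In the gene groups of the testis, between 0 and 2 members had a LacZ peak at an end. Beside the 4.96% of protein-coding genes, counts this small in groups of 20 to 60 genes do not set these groups apart. Of 30 spermatogonial genes, which act in stem cells and their first divisions, 2 had one. These were Lhx1, with folds of 12.7, 6.84 and 6.60, and Dazl, an RNA-binding regulator of germ cell translation, with 10.5, 4.55 and 7.52. Of 48 meiotic prophase genes, 2 had one, among them the synaptonemal complex gene Syce1 (8.05, 6.04 and 11.5). Of 60 spermiogenesis genes, 1 had one, the axonemal dynein gene Dnah1 (27.8, 9.80 and 12.5). No gene end of the 25 piRNA pathway genes, the 22 Sertoli cell markers, or the 20 markers of Leydig, peritubular, vascular and macrophage cells was touched.

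Inside the gene with flanks, 7, 6, 12 and 6 of the spermatogonial, meiotic, spermiogenesis and piRNA genes held a peak, beside 17.6% of protein-coding genes. Some of these were strong. Zbtb16, of the spermatogonial group, held a peak with folds of 76.0, 19.003 and 39.3. Kit, of the same group, which encodes the receptor for stem cell factor, held one with 59.7, 20.9 and 31.9. Zpbp, an acrosomal protein gene, held one with 62.0, 17.8 and 32.0. In the piRNA group, Tdrd12 had 51.1, 21.4 and 24.9 and Henmt1, the piRNA methyltransferase, had 42.3, 10.1 and 22.1. The Sertoli markers had 3 of 22 and the markers of the other somatic cells 1 of 20.

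Apoptosis and p53 genes had 4 of 34 members with a peak at an end (11.8%), beside 4.96% of protein-coding genes. This was the highest share among the groups listed apart from the Mup genes. With 1 kb windows 2 of the 34 had one, and counts this small do not set the group apart. Pmaip1 and Bbc3, which encode the pro-apoptotic proteins Noxa and Puma, had folds of 40.9, 10.7 and 26.0, and 23.4, 7.70 and 13.8. Bcl2l1, which encodes the survival protein Bcl-xL, had 32.5, 9.40 and 19.03. Regulators of DNA and histone methylation had 3 of 47: the histone demethylase gene Kdm1a (50.5, 11.98 and 20.96), the histone methyltransferase gene Suv39h2 (24.1, 6.05 and 13.3) and Dnmt3b-ps1 (17.0, 9.55 and 6.34). The last entered as Dnmt3c, a synonym of it in this reference, which annotates it as a pseudogene.

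Gene families defined by their symbols, the Mup genes apart, had shares between 0.860% and 5.13%, beside 4.96% of protein-coding genes. Olfactory receptor genes had 15 of 1100 (1.36%), vomeronasal receptor genes 3 of 349 (0.860%) and keratin genes 1 of 106 (0.943%). Zinc finger genes had 11 of 388, solute carrier genes 12 of 358, ribosomal protein genes 3 of 79, histone genes 3 of 63 and Hox genes 2 of 39. Defensin genes had 3 of 70, with Defb15 at 44.5, 15.5 and 26.0. Very long adhesion and synaptic genes had a peak at an end in 1 of 35 and in the gene with flanks in 34 of 35, at 3.35 peaks per Mb of gene. Of all protein-coding genes over 500 kb, 88.9% had a peak in the gene with flanks. Over the 21 groups without the Mup genes, 94 of 4134 genes (2.27%) had a LacZ peak at an end, beside 4.29% of all autosomal genes.

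**Figure D5:**
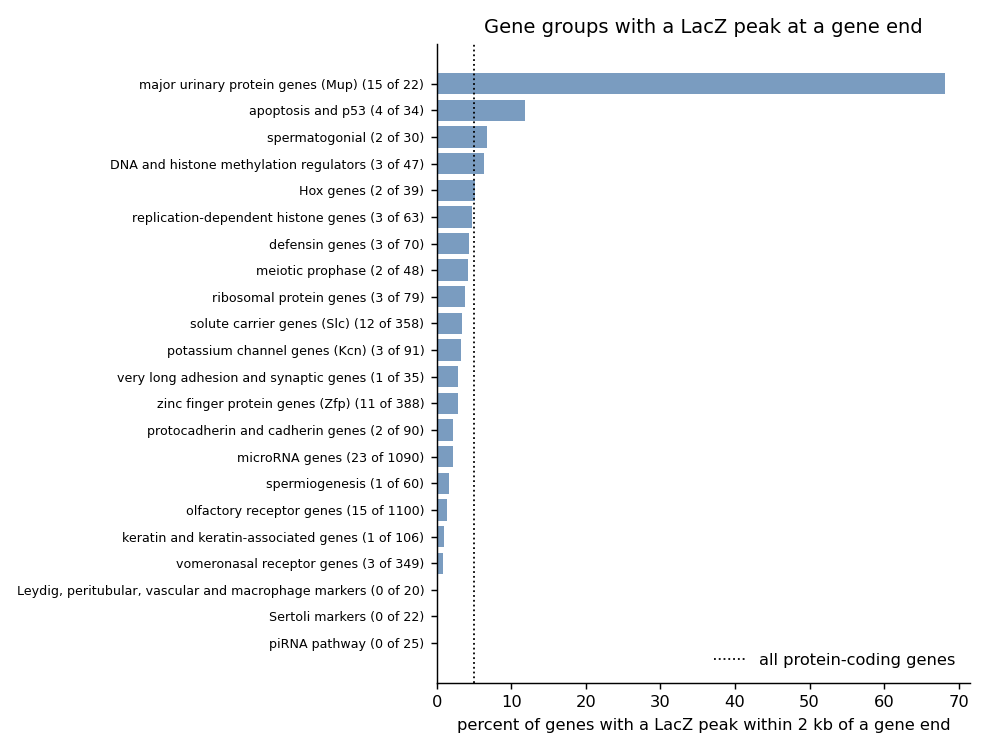
Percent of the autosomal genes of each group that had a LacZ peak within 2 kb of a gene end (horizontal axis), with the number of genes beside each name and a dotted line at the 4.96% of all protein-coding genes. The Mup genes stand at 68.2%, apoptosis genes at 11.8%, and the remaining groups between 0 and 6.67%.

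At the locus of Gm4665 itself (chr9:115178427-115186101) the control list was empty, as it was at most genes. Only 11.1% of all autosomal genes had a LacZ peak in the gene with 2 kb flanks, so the empty locus does not set Gm4665 apart. The nearest LacZ peak lay 85331 bp away, inside Osbpl10, an oxysterol-binding protein gene whose span includes Gm4665, with folds of 19.9, 6.36 and 12.6. Both lists were made over input of the same study, so what they share is given as counts alone. Of LacZ peaks, 344 (3.73%) overlapped a Gm4665 peak by at least 1 bp, and 343 Gm4665 peaks (0.912% of that list) overlapped a LacZ peak. Median folds of the LacZ peaks that overlapped were 19.9, 7.77 and 10.8, and of those that did not 23.0, 8.18 and 10.9. The log2 ratio was below 0 in all 3 LacZ replicates and all 3 Gm4665 replicates, and the difference between probe sets was -0.01 (exact permutation p = 1, two-sided, n = 3 and 3). For folds in the first 10 Mb of a chromosome relative to the rest, the difference between probe sets was -0.03 (exact permutation p = 0.3, two-sided, n = 3 and 3, adjusted p = 0.6). That difference was -0.00042 without replicate 3, and -0.09 (exact permutation p = 0.1, two-sided, n = 3 and 3) with the mean of log2 folds.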

How the data were processed

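Chromatin captured with LacZ or Gm4665 probes was compared with input DNA in 9 samples, grouped by their titles, since the protocol text names Gm4665 probes for every sample. The authors deposited 1 peak list per probe set, called with MACS2 according to the file names. Aligner, version and settings: not given in the sources used here. Per the file headers, a row holds a peak and 1 fold (a linear ratio over input) for each replicate. The deposited pileup is a signal, the coverage at the summit, and was used only as a description. Coordinates are mm10 per the submitters' processing notes, and genes, promoters and miRNAs are from RefSeq GRCm38.p6.

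Rows repeating an interval (159 extra rows on the autosomes) were joined, keeping the highest fold per replicate. In the 120 repeated intervals the fold of replicate 1 and the pileup never varied, while that of replicate 2 varied in 49 and that of replicate 3 in 89, so the joined folds of those intervals are upper values. Genes starting below 3 Mb (328) were left out, since no peak of either list starts there. Peaks were placed by midpoint; a gene was counted when a peak touched it. Shares carry 95% Wilson intervals. Fold ratios within a replicate were compared between probe sets with exact permutation tests (scipy 1.17.1). Named peaks were the strongest by mean relative fold (10 at gene ends, 5 inside genes, 5 intergenic), the 5 widest, the 5 genes with most peaks, up to 3 per gene group, the 5 smallest and 5 largest relative spreads among the 500 strongest, and Gm4665 with Osbpl10. Kinase and other genes with symbols like those of ribosomal protein genes were left out of that group after its counts were seen. Members, gene groups and this rule were chosen with earlier results of these data known. The functions were tested on simulated data. No genome was used here, so peak sequences are not given. The values of 1 meiotic prophase gene are not reported here.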

Additional observations from a re-analysis of the deposited data

How the results depend on the processing

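With 1 kb in place of 2 kb windows, the shares of LacZ peaks at gene ends, inside genes and between genes were 9.44%, 51.9% and 38.6%, with 1302 genes touched and 61 genes of the groups. With protein-coding genes alone they were 8.33%, 44.2% and 47.5%, with 1019 genes. Fewer bases or genes are searched in both. Set against the sequence in each class, gene ends held 1.48 and 1.42 times their share, beside 1.37 times with 2 kb and all genes. Requiring 50% of the LacZ peak left 179 overlaps with the Gm4665 list, and the 9213 strongest Gm4665 peaks gave 80. The difference of the gene-end ratio between probe sets turned to 0.0038 with the mean of log2 folds, and ran from -0.0343 to 0.0231 when 1 replicate number was left out. That of the overlap ratio ran from -0.0577 to 0.0268. It was -0.0984 with the mean of log2 folds. Neither has a stable direction. The first 10 Mb difference ran from -0.0468 to -0.0004. The wide-over-narrow difference stayed between -0.45 and -0.35. The mean LacZ fold (over replicate medians) was 9.56 without replicate 1 and up to 16.97 without another. Leaving out a replicate gave 2.37 to 2.63 times for the Mup array and 0.445 to 0.628 times for the 5S array, which were alternatives chosen after seeing the data. Moves were under the error of each value for the mean fold with folds of at least 4 in all replicates, with repeated rows kept, with X and Y added or with the arrays left out, and for the class shares with folds of at least 4 or without the arrays. Median width was 851 bp with folds of at least 4 and 852 bp with repeated rows kept. Whether replicate numbers pair the samples is not known. Over 346 overlapping pairs of peaks, deviations of same-numbered samples correlated at -0.05, -0.05 and 0.01. Low correlations at so few peaks cannot exclude a shared input or preparation. Under a replicate block the differences keep their values (-0.0017, -0.41, -0.0102 and -0.0312), and exact permutation p was 1, 0.25, 1 and 0.5 (two-sided, n = 3) for the gene-end, wide-over-narrow, overlap and first 10 Mb ratios, where 0.25 is the smallest possible.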

Other observations

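On the sex chromosomes, which the autosomal values leave out, the LacZ list held 155 intervals on X and 80 on Y. The widest LacZ interval of the list was on X: chrX:135040244-135056445, 16202 bp, over the gene 3632454L22Rik, where the widest autosomal peak had 5552 bp. Its folds were 60.2, 34.3 and 62.4 in replicates 1, 2 and 3, with replicate 3 above replicate 1. Median folds on X were 23.0, 7.27 and 9.80, and on Y 21.1, 7.69 and 11.1.

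Outside the Mup and 5S arrays, the LacZ windows of 1 Mb with the most peaks were on chromosome 16 (10000001 to 11000000, 16 peaks), chromosome 15 (86000001 to 87000000, 15 peaks) and chromosome 17 (25000001 to 26000000, 14 peaks). Their median relative folds were 0.943, 1.19 and 1.01, near that of the whole list. The Gm4665 list held 23, 21 and 20 peaks in the same windows, where its median window held 16. Of the 9213 LacZ peaks, 903 (9.80%) had another LacZ peak within 10 kb, while the median gap to the next was 157238 bp.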
